A study of Mus musculus with 50 samples.

Results

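Wound healing in non-regenerative mouse digits was compared between 24 hours and 3 days after amputation, using 3 digits at each time, which are 6 of the 50 samples analysed here. The comparison asks which functions rise and which fall as the wound bed leaves its first day. All 6 digits were labelled as left, non-regenerative distal terminal phalanges (P3, the last bone of the digit with its nail, skin and soft tissue) of mice, and their labelled amputation levels were 63, 68 and 73% of the phalanx at 24 hours (replicates 1, 2 and 3) and 68, 69 and 70% at 3 days. The amputated animals were young adult male C57Bl/6 mice with no described transgene or drug treatment. The middle digit of both hindlimbs was amputated under isoflurane, one side at a non-regenerative and the other at a regenerative level, and the skin healed without sutures. By its label, 24-hour replicate 1 lies below the lower limit that the methods set for non-regenerative amputation. RNA came from the mixture of cells around the wound bed. Regenerative and unamputated digits were not analysed here. Cultured macrophages, used below for comparison, came from the bone marrow of young female C57Bl/6 mice. They were treated with interferon-gamma and lipopolysaccharide or with IL-4.

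A skin wound passes through overlapping phases. In the first, platelets, damaged cells and resident cells release chemokines and cytokines that draw in neutrophils and then monocytes, and keratinocytes at the wound edge switch to a migratory state with stress keratins such as keratins 6, 16 and 17. In the next, macrophages clear debris, keratinocytes and fibroblasts divide, and fibroblasts fill the gap with a matrix rich in collagen. In a digit amputated through the proximal part of P3 the wound closes over the bone stump and the lost bone is not rebuilt.

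The 6 libraries held between 3488364 and 9544435 expected counts, 3-day replicate 1 having the fewest. The date in the label fell in an earlier period for 4 digits (replicates 1 and 3 of both times) and in a later period for 1 digit of each time (replicate 2), and no date was shared by a 24-hour and a 3-day digit, so that the date itself and the time cannot be told apart. The first principal component held 36.7% of the variance and separated the times, and the second (26%) placed both digits of the later period at its high end. Spearman correlations over genes were 0.947 to 0.974 within 24 hours, 0.925 to 0.949 within 3 days and 0.904 to 0.947 between times. The epidermal markers Krt14, Krt10 and Krt1 were among the most abundant transcripts of all digits (Krt14, 14524 to 17836 normalized TPM at 24 hours and 9833 to 16374 at 3 days). Fewer cells of a type and less RNA per cell cannot be told apart in such whole-tissue libraries.

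Of 12974 genes tested, 358 (2.76%) were called, meaning an adjusted p under 0.05 in edgeR's quasi-likelihood test with Benjamini-Hochberg adjustment together with mean normalized counts (plus 1) more than 2 times apart. At 3 days 164 genes (1.26%) were higher and 194 (1.5%) were lower, and the median log2 fold change of all tested genes was 0.03. The call depended on single digits. Without 24-hour replicate 1 only 2 genes were called and without 24-hour replicate 3 none (1727 and 2000 genes had an unadjusted p under 0.05, against 2432 with all 6 digits). A fit with the label period as a term, in which both times hold 2 earlier digits and 1 later digit, called 604 genes (314 higher and 290 lower), and the 4 digits of the earlier period alone gave 584. Without 24-hour replicate 2 there were 188 calls, and without 3-day replicates 1, 2 and 3 there were 157, 683 and 74. Of the 72 called genes named by rule, 71 kept their direction in all 6 of these fits, and the other, Csf3, kept it in the 5 that tested it. The p-values measure the spread between these digits, whose labels do not say more about the animals than a mark per digit.

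**Figure D1:**
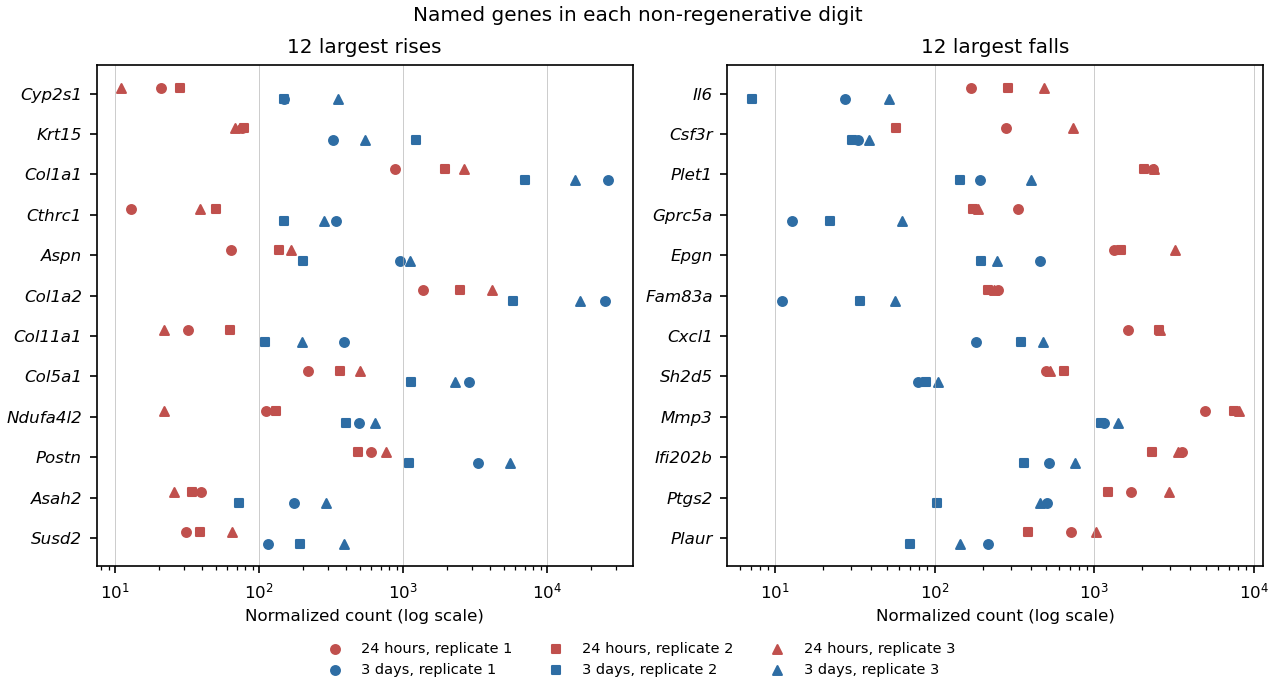
Normalized counts (log axis) of the 12 largest rises (left) and the 12 largest falls (right), 1 point per digit, with red for 24 hours, blue for 3 days and marker shape for the replicate. Within every gene the 3 red points and the 3 blue points do not overlap, which was part of the rule that chose the genes.

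Acute inflammatory signals fell in part. Of 15 tested members of a list of acute cytokines and mediators, 5 were called lower (1.5% of all tested genes were) and none higher, and the median log2 fold change of the tested members was -2.11. Of the other 7 members of the list, 4 had too few counts to be tested and 3 had no row in the table. Il6, the cytokine that signals through gp130 and STAT3, had 168, 287 and 481 normalized counts in the 24-hour digits and 27.3, 7.12 and 51.8 in the 3-day digits. Every 24-hour digit was above every 3-day digit, and Il6 fell by 3.47 on the log2 scale (SE 0.63, adjusted p = 0.0261). Ptgs2, the inducible enzyme of prostaglandin synthesis, went from 1689, 1228 and 2934 to 505, 103 and 458 (log2 fold change -2.47 ± 0.55 SE, adjusted p = 0.0464).

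The other members called were IL-10 family cytokines and a granulocyte growth factor. Il24 had 128, 143 and 258 normalized counts at 24 hours and 14.6, 3.96 and 0 at 3 days. Il19 had 77.7, 36.2 and 90.1 at 24 hours and 0 counts in all 3-day digits, at least 12.4-fold lower when 3 counts in the smallest 3-day library are taken as the floor, and with Il19 at that bound the list median remained -2.11. For Csf3, the neutrophil growth factor G-CSF, the digits had 12.02, 21.3 and 35.3 at 24 hours and a single count in the 3-day digits together. Il1b was not called, with 1651, 411 and 4136 at 24 hours and 744, 141 and 559 at 3 days (log2 fold change -2.11 ± 0.78 SE, adjusted p = 0.18): replicate 2 was the lowest digit of both times, and its 24-hour value lay below 2 of the 3-day values. The number called lower was 11 with the label period as a term. Without 24-hour replicate 1 or 3 no member of the list was called, without 24-hour replicate 2 there were 3, and without 3-day replicates 1, 2 and 3 there were 2, 6 and 3.

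A list made for neutrophil-attracting chemokines held Cxcl1, Cxcl2, Cxcl3, Cxcl5 and Ppbp, and also Pf4 and Cxcl12. It mostly went the same way, with 2 of 7 called lower (1.5% of all tested genes were) and none higher and a median of -1.73. Of the 7, 2 had a positive log2 fold change. At an unadjusted p under 0.05 by edgeR, 4 were lower and 1 was higher. In at least 1 fit with a digit left out, 1 member was called higher. Cxcl1 had 1624, 2559.7 and 2593 normalized counts at 24 hours and 182, 349 and 476 at 3 days. The lowest 24-hour digit was several times above the highest 3-day digit (log2 fold change -2.74 ± 0.35 SE, adjusted p = 0.0146). Cxcl5 fell from 453, 549.9 and 921 to 94.8, 132 and 259 (log2 fold change -1.97 ± 0.40 SE, adjusted p = 0.0335). The summed level of the 7 chemokines per length was 944 to 1484 normalized TPM at 24 hours and 236 to 458 at 3 days. With the label period as a term 3 were called lower. Without 24-hour replicate 1 or 3 none was called lower, and without 3-day replicate 1 only 1 was.

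Neutrophil genes themselves were less uniform. Of 15 tested (of 23), 2 were called lower (1.5% of all tested genes were), none higher, and the median was -1.16. Csf3r, the G-CSF receptor, had 278, 56.7 and 734 at 24 hours and 32.8, 30.1 and 38.9 at 3 days. The 3-day digits were alike and the 24-hour digits spanned more than 10-fold (log2 fold change -3.38 ± 0.76 SE, adjusted p = 0.0488). Lcn2, which neutrophils and keratinocytes both make, fell from 648, 426 and 451 to 137, 87.8 and 164 (log2 fold change -1.98 ± 0.29 SE, adjusted p = 0.0148). S100a9 and S100a8, the calprotectin subunits, also made by injured epidermis, were not called, and S100a9 had 1481, 1389 and 1570.0 normalized counts at 24 hours and 788, 1610.4 and 1376 at 3 days. The epidermal protease gene Asprv1, which stands in the list because neutrophils also express it, had the highest level of the list at 338 to 969 normalized TPM at 24 hours and 578 to 1294 at 3 days. The summed level of the list overlapped between times (2217 to 2461 against 1569 to 2641 normalized TPM). Ltf and the granule gene Camp were among the 8 members with too few counts to be tested. Adding the label period as a term gave 6 neutrophil genes called lower. Without 24-hour replicate 1 or 3 none was called, and without any 1 of the 3-day replicates 1 was.

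Regulators that follow cytokine signals were called in small numbers, where 1.5% of all tested genes were called lower and 1.26% higher. Socs3, the feedback inhibitor induced by STAT3, was the 1 member of 15 NF-kB and cytokine feedback genes called lower (none higher), at 966, 898 and 1092 and then 332, 232 and 312 (log2 fold change -1.76 ± 0.21 SE, adjusted p = 0.0123). Of 15 immediate early genes, the AP-1 subunits Fosl1 and Junb were called lower and none higher. Fosl1 had 167, 177 and 348 at 24 hours and 60.2, 39.6 and 74.2 at 3 days (log2 fold change -1.999 ± 0.38 SE, adjusted p = 0.0281). There were 3 feedback genes and 2 immediate early genes called lower with the label period as a term. Neither list had a call without 24-hour replicate 1 or 3, and the AP-1 calls were lost without 3-day replicate 1 or 3.

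Genes of the activated wound epidermis fell as well. Of 13 wound-induced keratins, S100 and small proline-rich genes, 7 were called lower and none higher, and all 13 had a negative log2 fold change (median -1.29, against 0.03 over all tested genes). Krt6a, the stress keratin of migrating keratinocytes, had 121390.0, 108780.0 and 108400.0 normalized counts at 24 hours and 29254, 49358 and 34110.0 at 3 days. The 24-hour digits differed little among themselves, and all lay more than 2 times above the highest 3-day digit (log2 fold change -1.59 ± 0.26 SE, adjusted p = 0.0187). Krt17 fell by 1.91 on the log2 scale and the cornified envelope precursor Sprr1a by 2.21. Serpinb2, the plasminogen activator inhibitor PAI-2, went from 6825, 8023 and 8627 to 2240.4, 976 and 2328 (log2 fold change -2.08 ± 0.32 SE, adjusted p = 0.016). Krt6b and Krt16 were not called, at -0.53 and -1.02, and 3-day replicate 2 held more Krt6b than any 24-hour digit. Krt6a and Krt6b are near-identical, so the split of reads between them is uncertain. With the label period as a term 10 members of the list were called lower, by DESeq2 10 and by limma 0. Counts of the list without single digits were 0 (24-hour replicate 1 or 3, or 3-day replicate 3), 3 (24-hour replicate 2), 2 (3-day replicate 1) and 10 (3-day replicate 2).

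The keratinocyte migration list held more falling genes than any other list used here, 10 of 19 (none higher, median -1.52), and in 14 of the 19 every 3-day digit was below every 24-hour digit, against 12.5% of all tested genes. Lamb3 and Lama3 encode laminin chains that migrating keratinocytes lay down beneath them. Lamb3 fell by 1.57 on the log2 scale, and Lama3 missed the call (-1.52, adjusted p = 0.07286 in the same test). Of the laminin receptors, Itga3 had 872, 815 and 1041 at 24 hours and 242, 234 and 325 at 3 days (log2 fold change -1.77 ± 0.21 SE, adjusted p = 0.013), and Itga6 fell by 1.204. Plau (urokinase), which opens a path through fibrin, had 1092, 625 and 1139 at 24 hours and 339, 274 and 257 at 3 days, and its receptor Plaur 711, 385 and 1022 and then 217, 69.6 and 145. The actin bundler Fscn1 fell by 1.29.

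Ligands of the epidermal growth factor receptor split. Epgn (epigen) had 1321, 1468 and 3229 normalized counts at 24 hours and 456, 194 and 245 at 3 days (log2 fold change -2.76 ± 0.43 SE, adjusted p = 0.016), Hbegf had 1475, 948 and 1343 and then 182, 328 and 455, and Areg fell by 2.07 on the log2 scale. Btc, Ereg and Tgfa were not called, at 1.74, 0.79 and -0.76. In basal and suprabasal keratinocyte genes 2 of 14 were called lower, the desmosomal cadherin Dsg3 (-1.71) and the hemidesmosomal integrin Itgb4 (-1.35), and 1 higher, Krt15. These 3 calls, against 2.76% of all tested genes called, were lost without 24-hour replicate 1 or 3. With the label period as a term 12 migration genes were called lower. The number called was 0 without 24-hour replicate 1 or 3, 10 without 24-hour replicate 2, and 7, 10 and 2 without 3-day replicates 1, 2 and 3.

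Genes outside these lists were among the largest falls. Plet1, a surface protein of epithelial progenitors, had 2333, 2062 and 2386 at 24 hours and 191, 145 and 399 at 3 days (log2 fold change -3.20 ± 0.36 SE, adjusted p = 0.0111), and the groups lay far apart. Gprc5a, an orphan receptor of epithelia, had 335, 174 and 186 and then 12.8, 22.2 and 62.4. Fam83a, which acts downstream of the epidermal growth factor receptor, had 251, 215 and 236 and then 10.9, 34.0 and 56.5. Sh2d5 (497, 650.0 and 527 against 78.4, 87.8 and 105) had the smallest adjusted p of the named genes (0.00796), and it overlaps Kif17 on the same strand, so its counts are uncertain. Ifi202b (3537, 2315 and 3335 against 519.5, 362 and 762) belongs to a family of near-identical genes, and its value is uncertain for that reason.

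Proteases that remodel matrix went in both directions. Of 16 metalloproteinases and inhibitors tested, 3 were called lower (1.5% of all tested genes were) and 1 higher (1.26% were), with a median of -0.54. Mmp3 (stromelysin-1) had 4922, 7484 and 8088 at 24 hours and 1150.3, 1106 and 1404 at 3 days, with both groups tight (log2 fold change -2.49 ± 0.24 SE, adjusted p = 0.0111). Adamts4 and Adamts1, which cleave proteoglycans, fell by 1.95 and 1.35 on the log2 scale. Mmp2 (gelatinase A), a product of fibroblasts, rose from 366, 449.9 and 600.5 to 1256, 844 and 1666 (log2 fold change 1.41 ± 0.29 SE, adjusted p = 0.0343). Adding the label period as a term gave 6 called lower and 1 higher. Without 24-hour replicate 1, 1 member was called lower and none higher, and without 24-hour replicate 3 none was called. Mmp2 was called only in the fit without 3-day replicate 2 among the 6 that left out 1 digit.

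All 17 tested genes of ribosome production had a negative log2 fold change (median -0.70). Of these Polr1b and Bop1 were called lower (1.5% of all tested genes were) and none higher. Polr1b, a subunit of RNA polymerase I, had 339.6, 324 and 399 and then 157, 145 and 164 (log2 fold change -1.19 ± 0.20 SE, adjusted p = 0.0193). Without 3-day replicate 2, 11 members were called, and without 24-hour replicate 1 or 3 or 3-day replicate 1 or 3 none was. In arginine and polyamine metabolism Odc1, the rate-limiting enzyme of polyamine synthesis, fell from 3473, 2723 and 3579.6 to 1048, 779 and 942 (log2 fold change -1.82 ± 0.21 SE, adjusted p = 0.0111), and Srm, which makes spermidine, fell by 1.18. Arg1, which splits arginine into ornithine and urea, rose from 1039.8, 1885 and 1129 to 3345, 2634 and 5227 (log2 fold change 1.47 ± 0.32 SE, adjusted p = 0.0424). All 3 calls were lost without 24-hour replicate 1 or 3.

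**Figure D2:**
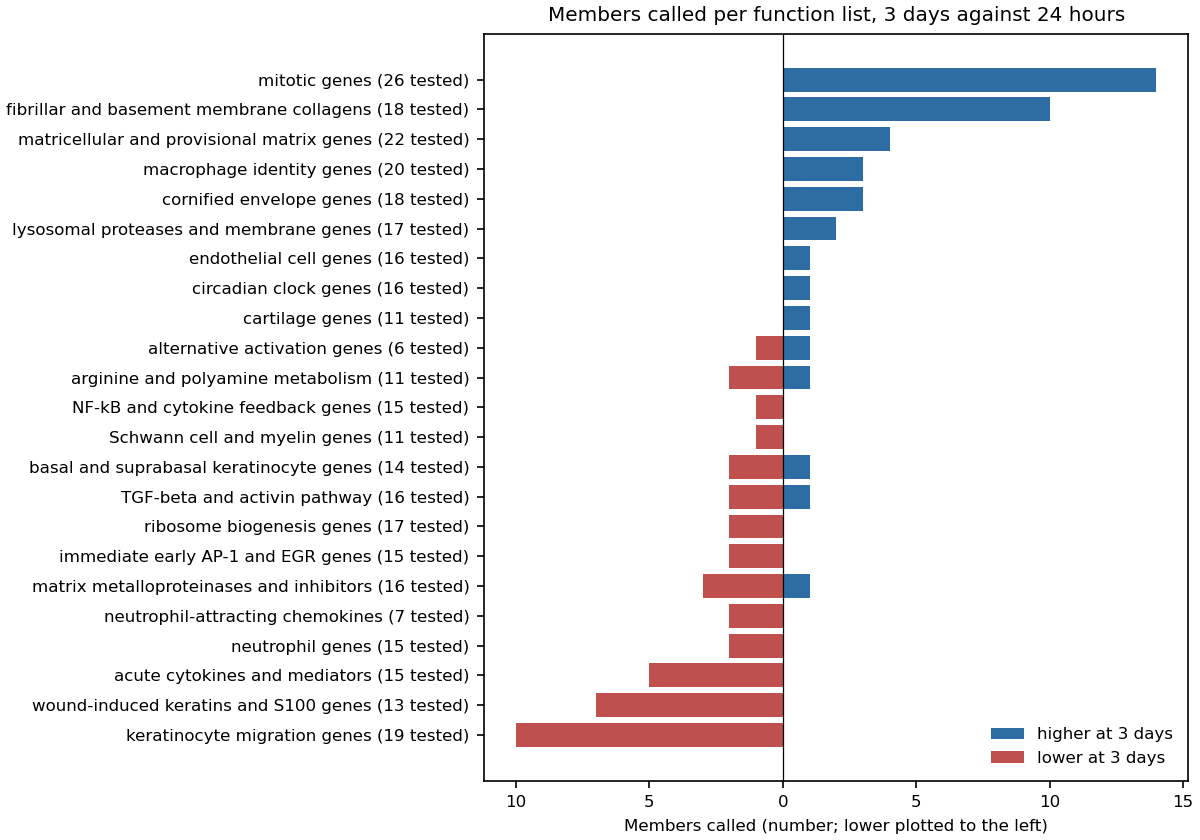
Number of members called higher (blue, to the right) and lower (red, to the left) at 3 days for the 23 function lists with at least 1 call, with the number tested in brackets. Mitotic genes (14 higher) and collagens (10 higher) stand at the top, and keratinocyte migration genes (10 lower) and wound-induced keratins (7 lower) at the bottom.

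Genes of mitosis rose. Of 26 genes that act in the G2 and M phases, 14 were called higher (1.26% of all tested genes were) and none lower, all 26 had a positive log2 fold change, and the median was 1.495. In 24 of the 26 every 3-day digit was above every 24-hour digit, against 13% of all tested genes. Cenpe, the kinetochore motor, had 109, 84.3 and 82.8 normalized counts at 24 hours and 275, 390.1 and 264 at 3 days (log2 fold change 1.75 ± 0.25 SE, adjusted p = 0.0148). Mki67, the proliferation antigen Ki-67, had 892, 526 and 715 and then 1779, 2036 and 2095. The 3-day digits were close to each other and the lowest stood well above the highest 24-hour digit (log2 fold change 1.47 ± 0.22 SE, adjusted p = 0.016). Kif23, a motor of the central spindle, rose from 89.7, 78.8 and 98.7 to 283, 332 and 226 (log2 fold change 1.66 ± 0.24 SE, adjusted p = 0.0149), and Ccna2, the cyclin of S and G2 phases, from 162, 149.7 and 116 to 376, 417 and 340.4 (log2 fold change 1.40 ± 0.22 SE, adjusted p = 0.016).

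Further called members were the mitotic cyclins Ccnb1 and Ccnb2, the kinase Plk1, topoisomerase Top2a, the motors Kif11 and Kif20a, the centromere proteins Cenpa and Cenpf, and Prc1 and Racgap1 of the cytokinetic machinery, between 1.16 (Racgap1) and 1.78 (Cenpa) on the log2 scale. The summed level of the list was 395 to 453 normalized TPM at 24 hours and 895 to 1830 at 3 days. Genes of DNA replication and S phase were not called in either direction (0 of 22 by edgeR, DESeq2 and limma, with 0 higher and 1 lower at an unadjusted p under 0.05), and their median was -0.06. Pcna, the sliding clamp of replication, had 642, 548 and 658 at 24 hours and 543, 567 and 603 at 3 days, overlapping groups. The difference between the 2 lists was not tested. With the label period as a term 19 mitotic genes were called higher. Without 24-hour replicate 1 or 3 no mitotic gene was called, without 24-hour replicate 2 there were 5, and without 3-day replicates 1, 2 and 3 there were 9, 14 and 5.

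The promoters of the called mitotic genes are shown as a description of their sequence. Many cell cycle genes carry CCAAT boxes, bound by NF-Y, and a cell cycle homology region (CHR) with the letters TTTGAA. RefSeq promoters (GRCm38.p6, 250 bases before to 50 after the start site) were found for 12 of the 14 genes, as 13 promoters. CCAAT was present on either strand in all 13, against 37.4% of 32851 promoters, and TTTGAA on either strand in 11 (84.6%, against 17.9%). Both were present in 84.6%, against 6.95% of all promoters. The AP-1 motif TGANTCA was found in none of the 13 (7.81% of all promoters). In Kif23, Cenpf, Racgap1, Cenpa, Plk1 and the Prc1 window further upstream, no TTTGAA match lay wholly within the 250 bases before the start site. The 250 bases before the start site of 4 of the promoters follow, all 4 with a TTTGAA match there. Each is read 5′ to 3′ on the strand of the gene, with capitals for CCAAT and TTTGAA and their reverse complements ATTGG and TTCAAA.
Mki67, chr7:135716380-135716629, minus strand: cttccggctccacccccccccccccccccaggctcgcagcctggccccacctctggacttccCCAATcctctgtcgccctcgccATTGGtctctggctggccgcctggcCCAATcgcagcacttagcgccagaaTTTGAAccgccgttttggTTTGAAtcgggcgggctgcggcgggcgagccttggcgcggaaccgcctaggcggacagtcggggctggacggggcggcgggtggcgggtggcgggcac
Top2a, chr11:99024190-99024439, minus strand: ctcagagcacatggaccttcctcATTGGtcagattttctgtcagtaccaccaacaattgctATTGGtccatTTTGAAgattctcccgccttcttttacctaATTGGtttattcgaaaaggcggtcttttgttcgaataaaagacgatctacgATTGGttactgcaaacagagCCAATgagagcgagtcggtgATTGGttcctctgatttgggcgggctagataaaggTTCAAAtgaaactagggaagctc
Ccnb2, chr9:70421555-70421804, minus strand: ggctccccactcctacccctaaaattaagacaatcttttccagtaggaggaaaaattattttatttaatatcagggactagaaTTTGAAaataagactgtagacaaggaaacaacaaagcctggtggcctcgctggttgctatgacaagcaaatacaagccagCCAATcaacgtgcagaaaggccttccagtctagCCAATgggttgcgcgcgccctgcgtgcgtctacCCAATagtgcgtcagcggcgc
Kif11, chr19:37376132-37376381, plus strand: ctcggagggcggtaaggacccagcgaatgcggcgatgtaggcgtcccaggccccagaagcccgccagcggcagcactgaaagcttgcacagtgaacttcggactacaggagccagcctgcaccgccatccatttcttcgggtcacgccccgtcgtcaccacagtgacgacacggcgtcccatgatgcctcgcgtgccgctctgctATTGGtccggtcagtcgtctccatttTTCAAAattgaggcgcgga
The Top2a window holds 6 CCAAT matches and the Mki67 window 3, while Kif11 has a single CCAAT 45 bases before the start site and a CHR 19 bases before it. These matches describe letters in the windows, and binding was not measured. The genes came from a list of cell cycle genes, so high shares of these elements could be foreseen from the list. Promoters of uncalled mitotic genes were not searched, so the shares do not bear on the rise between the times. Of the 10 called migration genes, 6 had a promoter in the table (8 promoters, Itga3 and Lamb3 having 2 each). The AP-1 motif was in 2 of the 8 (7.81% of all promoters) and the NF-kB motif in 3 (37.5%, against 8.46%). The 3 promoters with the NF-kB motif belong to only 2 of the 6 genes.

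Collagen genes, which fibroblasts express in a healing wound, rose. Of 18 fibrillar and basement membrane collagens, 10 were called higher and none lower, and the median was 1.75. Col1a1, 1 of the 2 chains of type I collagen, had 873, 1952 and 2633 normalized counts at 24 hours and 26371, 6937 and 15478 at 3 days. The groups were apart, with 3-day replicate 2 the lowest of its group and replicate 1 the highest (log2 fold change 3.16 ± 0.53 SE, adjusted p = 0.0194). Col1a2, the other chain, had 1373, 2490.3 and 4126 and then 25126, 5754 and 16893 in the same order of digits. Col3a1, the collagen of early granulation tissue, had 2891, 3469 and 6652 and then 25127, 13817 and 28245 (log2 fold change 2.37 ± 0.38 SE, adjusted p = 0.018).

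Minor fibrillar and fibril-associated collagens followed. Col5a1, which nucleates fibrils, had 216, 361 and 501 at 24 hours and 2856, 1136 and 2280.1 at 3 days (log2 fold change 2.54 ± 0.39 SE, adjusted p = 0.016). Col12a1 rose from 191, 295 and 238 to 1349, 563 and 1237 (log2 fold change 2.118 ± 0.33 SE, adjusted p = 0.0168). Col11a1, known from cartilage and also made by activated fibroblasts, rose from 32.0, 62.2 and 21.9 to 390.1, 109 and 199 and was the only called member of 11 cartilage genes tested, a call lost without 24-hour replicate 1 or 3 or 3-day replicate 1 or 3. Col5a2, Col5a3, Col6a1, Col6a2 and Col16a1 were the other called collagens, between 1.14 and 1.97. Per length, the summed level of the collagen list was 772 to 1728 normalized TPM at 24 hours and 2601 to 6423 at 3 days. Its count of calls was 12 with the label period as a term. The count was 0 without 24-hour replicate 1 or 3 or 3-day replicate 3, 3 without 24-hour replicate 2, 4 without 3-day replicate 1 and 13 without 3-day replicate 2.

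Secreted proteins that organize the matrix rose in part. Of 22 matricellular and provisional matrix genes, 4 were called higher (1.26% of all tested genes were) and none lower, with a median of 1.05. Postn (periostin) had 600.0, 484 and 762 at 24 hours and 3270.3, 1096 and 5501 at 3 days, 3-day replicate 2 being closest to the 24-hour digits (log2 fold change 2.42 ± 0.49 SE, adjusted p = 0.0351). Cthrc1, a secreted protein of activated fibroblasts, rose from 12.8, 50.4 and 39.0 to 339, 148 and 279 (log2 fold change 2.90 ± 0.50 SE, adjusted p = 0.0204). Eln (elastin) had 292, 363 and 331 and then 731, 694 and 753, narrow ranges in both groups (log2 fold change 1.14 ± 0.18 SE, adjusted p = 0.0168), a direction that turned with the intermediate digits as the 24-hour group (-0.14). The collagen-binding Sparc rose by 1.06. The proteoglycan Aspn (asporin), outside the list, rose from 63.3, 138 and 166 to 946, 201 and 1116, and it lies within Cenpp on the other strand. Fn1 and Tnc, of the provisional matrix, were not called (0.75 and -0.68). The fit with the label period called 9 members higher and 2 lower. Without 3-day replicate 2 the list had 12 calls, without 3-day replicate 1, 1, without 24-hour replicate 2, 3, and without 24-hour replicate 1 or 3 or 3-day replicate 3, none.

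Whether enzymes that fold and cross-link collagen were called depended on the fit. None of 18 was called by edgeR with all 6 digits and no period term (13 higher at an unadjusted p under 0.05, against 18.7% of all tested genes in either direction). With the label period as a term 4 were called higher, without 3-day replicate 2 there were 8, DESeq2 called 6 and limma 0. The median was 0.92, and in 10 of the 18 every 3-day digit was above every 24-hour digit, against 13% of all tested genes. Lox, the main cross-linking enzyme, had 144, 162 and 375 at 24 hours and 1283, 212 and 1075 at 3 days (log2 fold change 1.92 ± 0.60 SE, adjusted p = 0.124), so that 3-day replicate 2 lay among the 24-hour digits. Smooth muscle and myofibroblast genes had a median of 0.11 with 0 of 14 called (1 higher and 1 lower at an unadjusted p under 0.05, 1 called by DESeq2, 0 by limma, 1 with the label period as a term and 2 without 3-day replicate 2). Fap, the fibroblast activation protein, had 19.2, 10.2 and 10.96 and then 80.2, 28.5 and 122 (log2 fold change 2.49 ± 0.61 SE, adjusted p = 0.0642), and Acta2 72 to 98 against 69 to 146 normalized TPM. In the TGF-beta and activin list Inhba, which encodes activin A, fell from 443, 483 and 742 to 135, 112 and 178 (log2 fold change -1.97 ± 0.28 SE, adjusted p = 0.0148), its antagonist Fst fell by 1.34, and Tgfb3 rose from 91.3, 82.7 and 69.4 to 211, 206 and 245 (log2 fold change 1.44 ± 0.24 SE, adjusted p = 0.0183). These were 3 calls among 16 tested (median -0.17), against 2.76% of all tested genes called. All were lost without 24-hour replicate 1 or 3, the rise also without 24-hour replicate 2 or 3-day replicate 3, and 1 of the 2 falls without 3-day replicate 3.

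**Figure D3:**
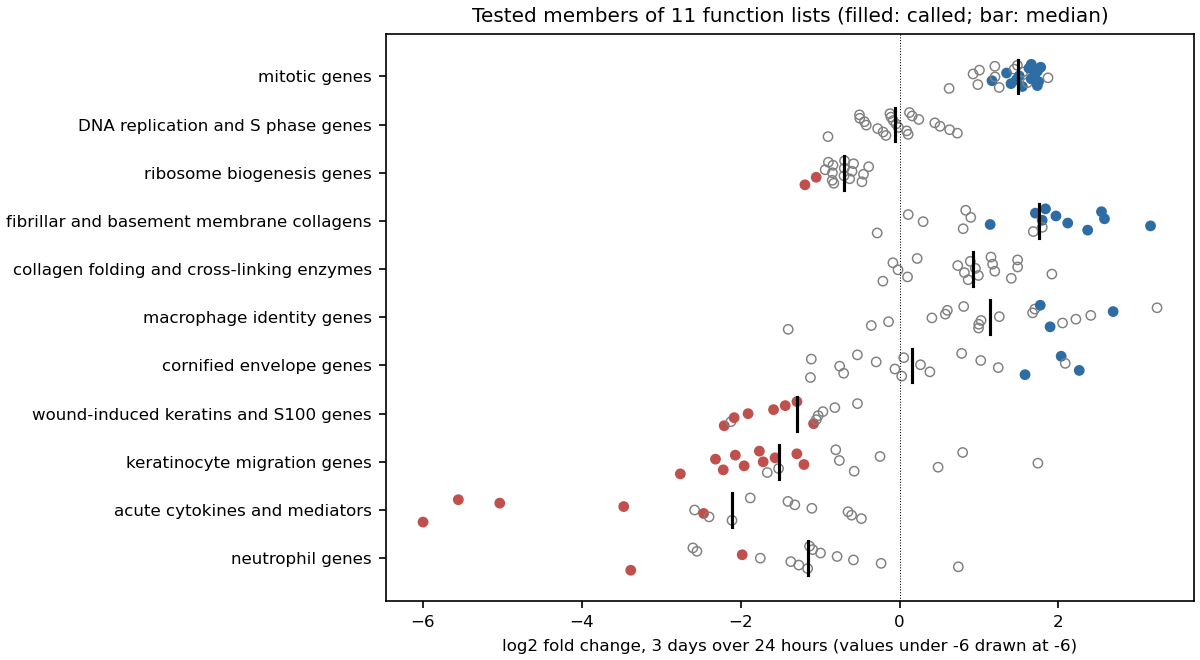
Log2 fold change of every tested member of 11 function lists, filled blue or red where called higher or lower and open where not called, with a bar at the list median. Mitotic genes lie to the right of 0 (median 1.495) while S phase genes centre on it (median -0.06). Il19, at the left edge, is at 0 counts in all 3-day digits.

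Macrophage genes rose in part. Of 20 macrophage identity genes tested, 3 were called higher (1.26% of all tested genes were) and none lower. A positive log2 fold change was found in 17, against 6771 of all 12974 tested genes, and the median was 1.14. Ms4a7, a membrane protein of macrophages, had 10.4, 14.2 and 10.96 normalized counts at 24 hours and 78.4, 42.7 and 112 at 3 days (log2 fold change 2.69 ± 0.50 SE, adjusted p = 0.028). C1qa and C1qc, chains of the complement component that tissue macrophages make, had 28.0, 53.6 and 57.2 against 144, 108 and 221 and 27.2, 33.1 and 63.3 against 162, 94.2 and 200.2. Trem2, the lipid-sensing receptor, missed the call with 8.81, 4.73 and 2.44 and 65.6, 19.0 and 75.4 (log2 fold change 3.24 ± 0.74 SE, adjusted p = 0.0506). Csf1r overlapped between times, since 24-hour replicate 3 (313) lay above 3-day replicate 2, and Cd163 had a log2 fold change of -0.36. Lyz2, the most abundant member, was at 36.8 to 165 normalized TPM at 24 hours and 107 to 409 at 3 days. Under the fit with the label period, 7 members were called higher and 1 lower. The 3 calls were lost without any 1 digit other than 3-day replicate 2, without which 8 members were called.

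The lysosomal protease Ctss, abundant in antigen-presenting cells, rose from 288, 273 and 591 to 2519, 733 and 1959.8 (log2 fold change 2.18 ± 0.46 SE, adjusted p = 0.0401), and Ctsa rose by 1.0724, the 2 calls among 17 lysosomal genes (median 0.51). Of all tested genes 1.26% were called higher. Both lysosomal calls were lost without any 1 digit other than 3-day replicate 2, and 4 members were called with the label period as a term. Of 6 alternative activation genes tested, Arg1 rose as given above and Il4ra, the receptor subunit for IL-4 and IL-13, fell from 1626, 1955 and 1926 to 735, 544 and 774 (log2 fold change -1.43 ± 0.20 SE, adjusted p = 0.0148). Retnla, Mgl2 and Il10 were among the 8 with too few counts to be tested, and Chil3 was not called (-0.64). The Arg1 call was lost without 3-day replicate 1 or 3, and both without 24-hour replicate 1 or 3.

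With all 6 digits and no period term, edgeR called no gene in the lists of monocyte and eosinophil chemokines and receptors (0 of 10), phagocyte lipid genes (0 of 16), MHC class II (0 of 8), interferon-stimulated genes (0 of 13) and complement (0 of 10). At an unadjusted p under 0.05 these held 1, 4, 2, 3 and 3 higher and 1, 1, 0, 0 and 0 lower members. The share of all tested genes was 18.7% in either direction. With the label period as a term edgeR called 1, 2, 0, 0 and 3 of them, without 3-day replicate 2 it called 1, 2, 0, 1 and 3, and DESeq2 called 1, 2, 0, 1 and 2, all higher. Limma called none. Ccr2, the monocyte chemokine receptor, had 36.0, 19.7 and 84.0 and then 159, 109 and 376 (log2 fold change 2.23 ± 0.59 SE, adjusted p = 0.0836). Interferon-stimulated genes set 3-day replicate 1 apart. Gbp2 had 34.4, 24.4 and 39.0 at 24 hours and 359, 24.5 and 68.3 at 3 days, and Ifit2 19.2, 20.5 and 53.6 and 399, 26.9 and 44.8, so that the other 3-day digits lay near the 24-hour range. Cells of the lymphoid lineages were near the limit of detection, with 2 of 12 T and NK cell genes and 0 of 7 B cell genes tested and none called (0 at an unadjusted p under 0.05, and 0 by DESeq2 or limma). Mast cell genes (4 of 8 tested) and erythroid genes (3 of 8) had no call by edgeR, DESeq2 or limma, with 1 mast cell gene higher at an unadjusted p under 0.05. Haemoglobin Hbb-bs ran from 76.4 to 393 normalized counts at 24 hours and from 23.7 to 87.5 at 3 days.

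A few epidermal differentiation genes rose. Of 18 cornified envelope genes 3 were called higher (1.26% of all tested genes were) and none lower, with a median of 0.16. Casp14, the caspase of cornifying keratinocytes that takes part in filaggrin breakdown, had 587, 613 and 529.8 normalized counts at 24 hours and 1730.0, 2395 and 4178 at 3 days. The lowest 3-day digit was more than 2 times above the highest 24-hour digit (log2 fold change 2.26 ± 0.31 SE, adjusted p = 0.0148). Ivl (involucrin), a precursor of the envelope, rose from 175, 159 and 267 to 574, 723 and 1158 (log2 fold change 2.03 ± 0.31 SE, adjusted p = 0.016), and Rptn (repetin) from 5504, 8631 and 9563 to 20891, 19480.0 and 30478 (log2 fold change 1.58 ± 0.28 SE, adjusted p = 0.024). Flg and Lor were not called, at 1.24 and 0.78. Krt15, the keratin of quiescent basal cells and hair follicle stem cells, had 76.1, 78.0 and 68.2 at 24 hours and 324, 1229.8 and 545 at 3 days (log2 fold change 3.24 ± 0.45 SE, adjusted p = 0.0148), while Krt5 and Krt14, the main basal keratins, were at 0.21 and -0.43 and were not called. The direction of Krt15 turned when 3 digits amputated at an intermediate level stood for the 24-hour group (-1.32) or were pooled with it (-0.37). Cyp2s1, a cytochrome P450 of epithelia, had the largest log2 fold change of the called genes named by rule, from 20.8, 28.4 and 10.96 to 149, 149 and 353 (log2 fold change 3.40 ± 0.48 SE, adjusted p = 0.0148). Cornified envelope calls were 5 with the label period as a term, 0 without 24-hour replicate 1 or 3, 3 without 24-hour replicate 2, and 2, 5 and 2 without 3-day replicates 1, 2 and 3.

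The remaining named risers had less settled roles in skin. Ndufa4l2, a hypoxia-responsive relative of a respiratory chain subunit, had 111, 132 and 21.9 and then 492, 399 and 637, and it overlaps Shmt2 on the other strand. Asah2, a neutral ceramidase, had 39.3, 33.9 and 25.6 and then 173, 72.8 and 289. Susd2 had 31.2, 38.6 and 64.6 and then 115, 193 and 389. The naming rule required that the 3-day digits lie above the 24-hour digits, and among the 3-day digits replicate 3 was the highest for all 3 genes.

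Lists of other tissues of the digit held few calls, in a test that on adjusted p alone recovered 5 of 200 simulated 2-fold changes. Hard keratins of nail and hair (0 of 13 called), osteoclast (0 of 7), osteoblast and osteocyte (0 of 11), skeletal muscle (0 of 4 tested, of 16), angiogenic ligand (0 of 11), adipocyte (0 of 5) and BMP, Wnt and limb patterning genes (0 of 17) had no call by edgeR with all 6 digits and no period term. These lists held 1, 1, 0, 0, 2, 2 and 5 higher members and 0, 1, 0, 0, 0, 0 and 0 lower members at an unadjusted p under 0.05. The share of all tested genes was 18.7% in either direction. In the patterning list 14 of 17 had a positive log2 fold change, against 6771 of all 12974 tested genes. In 6 of them every 3-day digit was above every 24-hour digit (13% of all tested genes), and in 2 below (12.5%). DESeq2 called 0, 2, 0, 0, 0, 1 and 3 members and limma none. With the label period as a term edgeR called 2 osteoclast genes (1 in each direction), 1 adipocyte gene and 2 patterning genes. Without 3-day replicate 2 it called 2 osteoclast genes and 1 patterning gene, and without 3-day replicate 1 it called 2 hard keratins lower. Sfrp2, a secreted Wnt modulator, had 6.41, 22.8 and 34.1 and then 157, 64.1 and 127 (log2 fold change 2.47 ± 0.59 SE, adjusted p = 0.0591), and Bmp2 120.2, 112 and 166 and then 102, 72.8 and 89.5. Ibsp, bone sialoprotein, overlapped widely (70.5, 487 and 272 against 1442, 162 and 778). Skeletal muscle genes were nearly absent, the most abundant, Tnni2 and Mylpf, staying under 22 normalized TPM, and 3 of the list were at 0 in all 6 digits.

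Of 16 endothelial genes 1 was called, the apelin receptor Aplnr, which rose from 13.6, 22.1 and 13.4 to 82.0, 51.4 and 104 (log2 fold change 2.25 ± 0.46 SE, adjusted p = 0.0364), and the median was -0.02. Pecam1 was at 24.2 to 31.4 normalized TPM at 24 hours and 31.9 to 41.8 at 3 days. Of 11 Schwann cell and myelin genes Mal was called lower, from 1461, 1612 and 1173 to 232, 488 and 524 (log2 fold change -1.76 ± 0.30 SE, adjusted p = 0.0201). Mal also occurs in epithelia, and the myelin gene Pmp22 was not called, at 31.9 to 41.4 and then 41.5 to 59.3 normalized TPM. Of 16 clock genes the output factor Dbp rose from 155, 118 and 109.6 to 312, 225 and 326 (log2 fold change 1.17 ± 0.25 SE, adjusted p = 0.0396), and the time of day at collection was not given. Over all tested genes 1.26% were called higher and 1.5% lower. Calls of Aplnr and Dbp were lost without any 1 digit other than 3-day replicate 2, and that of Mal without any 1 of the 24-hour digits or 3-day replicate 3.

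Lists of general metabolism and stress held no call by edgeR with all 6 digits and no period term. They held 23 glycolysis and hypoxia genes, 23 respiratory chain subunits, 15 antioxidant genes, 17 heat shock and unfolded protein genes and 15 cholesterol synthesis genes. At an unadjusted p under 0.05 there were 2, 0, 1, 0 and 0 higher and 2, 3, 6, 5 and 5 lower members. The share of all tested genes was 18.7% in either direction. In 3, 3, 6, 5 and 5 members every 3-day digit was below every 24-hour digit, against 12.5% of all tested genes. The reverse held in 2, 0, 1, 2 and 0 members, against 13%. DESeq2 called 1, 0, 1, 0 and 0, limma none. With the label period as a term 1 antioxidant gene was called lower, and without 3-day replicate 2 there were 1 antioxidant gene and 2 heat shock and unfolded protein genes lower. Hif1a, the hypoxia-inducible factor, had 4388, 4337 and 4055 and then 2543, 2807 and 2741, separate groups with a difference of less than 2-fold (log2 fold change -0.66 ± 0.17 SE, adjusted p = 0.0774).

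The levels over all 29 non-regenerative digits place the interval in the time course, as group means of normalized TPM without a test. Col1a1 was at 210.1 immediately after amputation and 75.6 at 24 hours. It then stood at 685 at 3 days, 1662 a week after amputation, 6444 on day 14 and 1878 on day 21, so that the level at 3 days lay early on a rise that went on to 14 days. Krt15 went from 253 at 0 hours through 62.1 at 12 hours to 11.4 at 24 hours, and was back at 131 at 3 days and 145 at 7 days. Il6 stood at 1.501 at 0 hours, 88.7 at 12 hours, 50.2 at 24 hours and 6.54 at 3 days. Mki67 was at 45.9 at 0 hours, 17.4 at 24 hours, 49.1 at 3 days and 57.5 at 7 days, so that 3 days lay near the level at amputation. Its digits at 6 hours (14.1, 16.9 and 23.6) and 12 hours (15.8, 18.2 and 22.5) overlapped those at 24 hours (21.8, 13.0 and 17.3). Casp14 was at 90.1 at 0 hours, 61.7 at 24 hours, 296 at 3 days and 152 at 7 days, which makes 3 days its highest group mean.

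Over the 164 called risers the median level was 24.9 normalized TPM at 0 hours, 11.3 at 24 hours, 31.5 at 3 days and 36.0 at 7 days, and over the 194 called fallers 17.6, 62.1, 22.2 and 21.1. The median level at 3 days was thus close to that at 0 hours in both. The 24-hour and 3-day values are, however, those that chose the genes. These medians are taken over levels and do not give the change of each gene. Among the fallers, Mmp3 was at 5.37 at 0 hours and 170 at 3 days and Krt6a at 631 and 4145, while Plau was at 30.3 and 30.9. In the 3 intermediate digits at 24 hours (labelled amputation levels of 41, 50 and 52%), the risers had medians of 16.01, 18.2 and 18.5, between the non-regenerative levels at 24 hours and at 3 days. The fallers had medians of 56.3, 21.8 and 26.5, so that the first intermediate digit lay near the non-regenerative level at 24 hours and the other 2 near that at 3 days. The first is of the earlier label period and the other 2 of the later one, so amputation level and period cannot be told apart among them. The 3-day group holds 2 earlier digits and 1 later digit, so the period is also unbalanced in fits with the intermediate digits. With the intermediate digits in place of the non-regenerative ones at 24 hours, edgeR called no gene (991 with an unadjusted p under 0.05), and with both kinds pooled it called 15, among them 4 mitotic genes and 1 collagen.

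**Figure D4:**
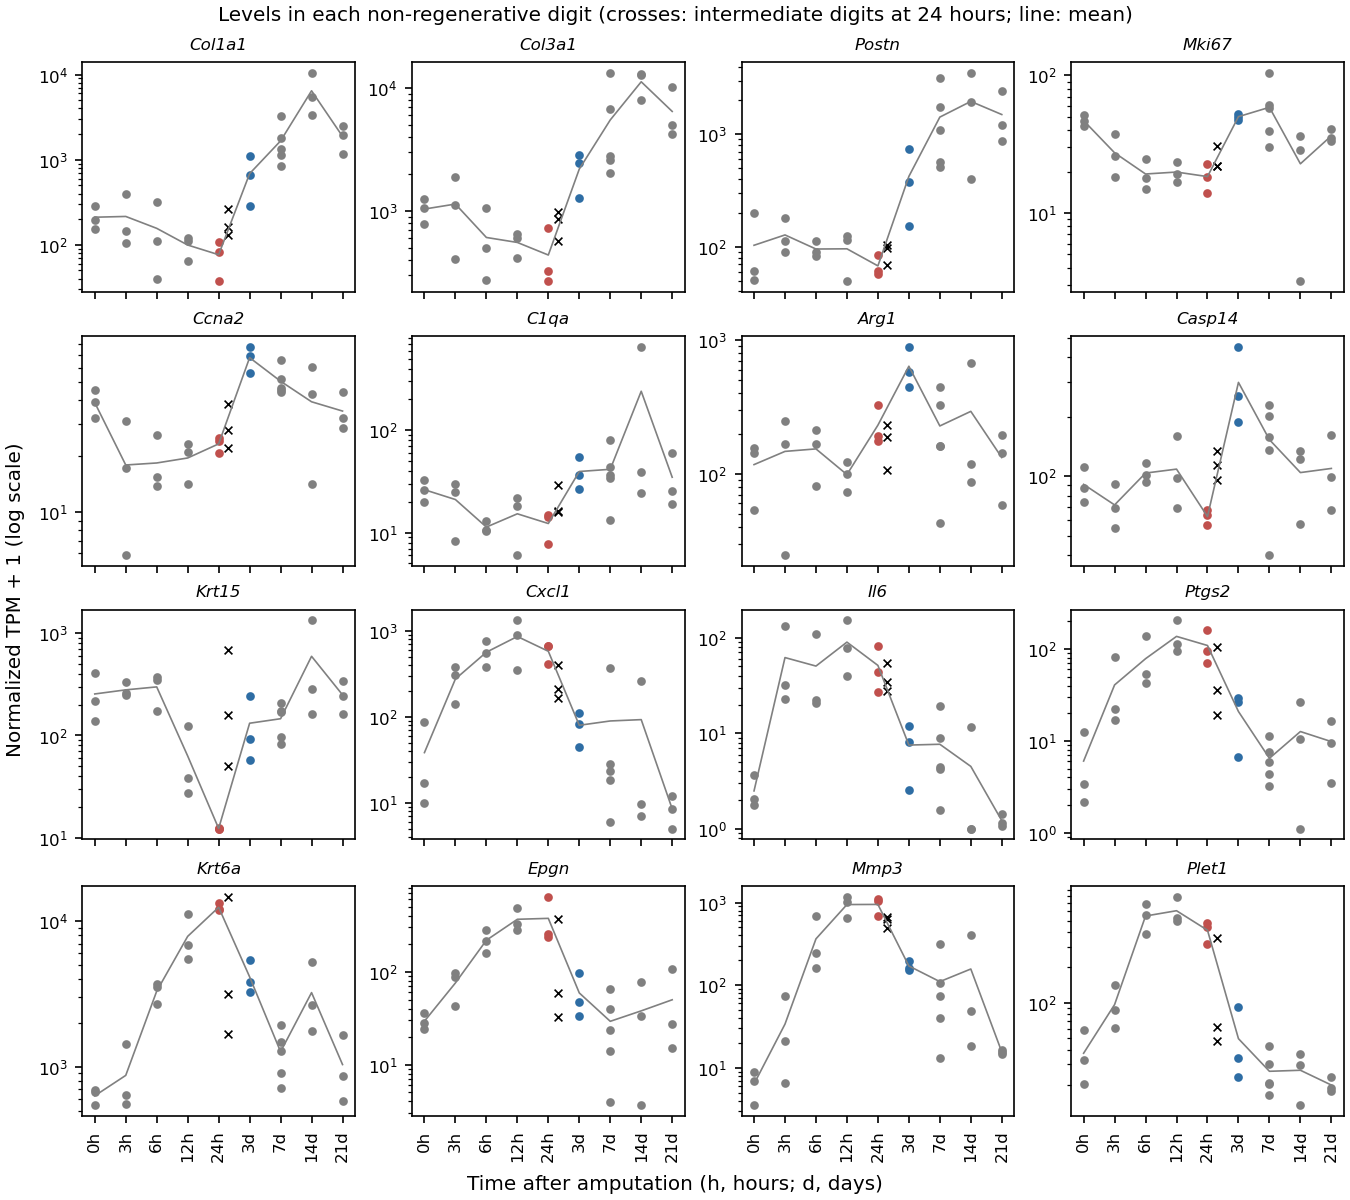
Normalized TPM plus 1 (log axis) of 16 genes in each of the 29 non-regenerative digits by time after amputation, with red for 24 hours, blue for 3 days, a line through the group means, and crosses for the 3 intermediate digits at 24 hours. Col1a1, Col3a1 and Postn go on rising after 3 days, and Cxcl1, Il6, Krt6a and Mmp3 peak at 12 or 24 hours.

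Bone marrow macrophages of female mice give a reading of the called genes that took no part in choosing them. They were cultured to the M1 state (pro-inflammatory, with interferon-gamma and lipopolysaccharide) or the M2 state (anti-inflammatory, with IL-4), 3 libraries each. Of the 164 risers, 60 (36.6%) were more than 2-fold higher in M2 than in M1 and 14 (8.54%) the reverse. Of the 194 fallers, 40 (20.6%) were higher in M2 and 58 (29.9%) in M1. Among all tested genes the shares were 18.8% for M2 and 15.3% for M1. These are descriptions of mean normalized TPM plus 1, with no test, and mitotic genes are among the risers.

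**Figure D5:**
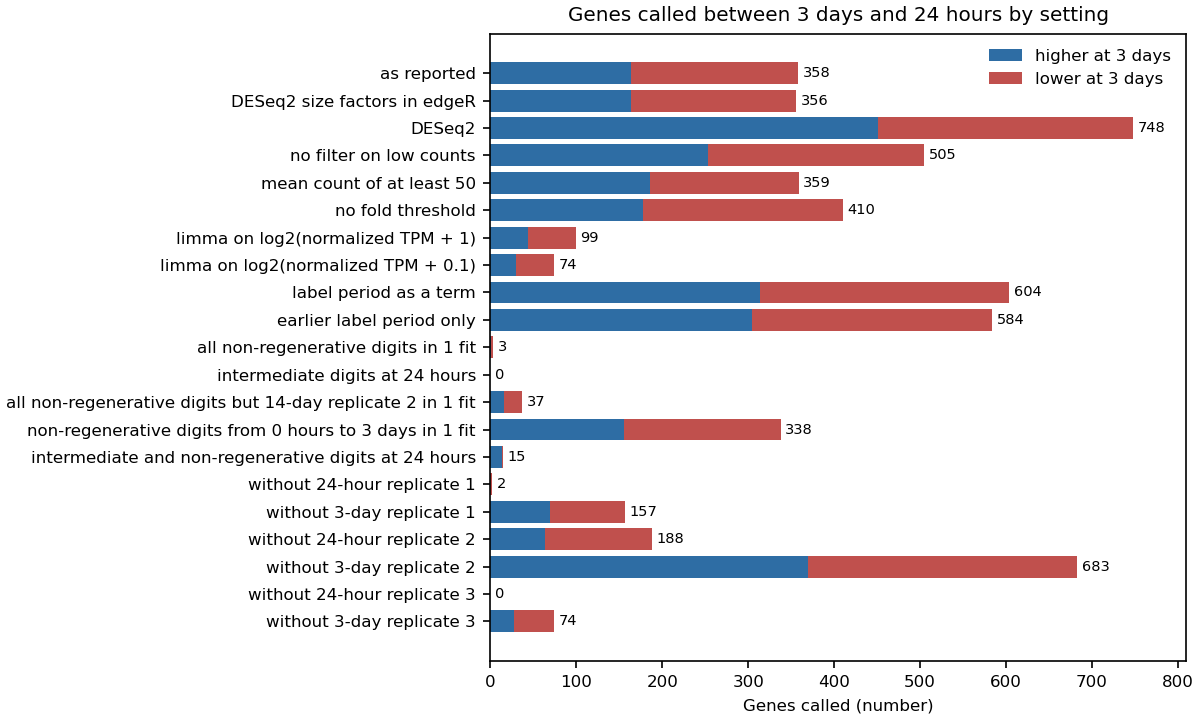
Number of genes called between 3 days and 24 hours under each setting, split into higher (blue) and lower (red), with the total beside each bar. The total is 358 as reported, 0 without 24-hour replicate 3, 2 without 24-hour replicate 1 and 683 without 3-day replicate 2.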

How the data were processed

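Polyadenylated RNA of the wound bed was sequenced as 1 single-end library per digit. The authors deposited an expected count per gene, computed with RSEM (1.2.3 in the submitters' processing notes) on mouse mm10 genes and not normalized, and a second signal that the deposited tables call normalized TPM, meaning TPM after a further median-by-ratio scaling of the libraries. The tables hold 21954 genes. Among the gene names of the digit tables, dates had replaced 26 which were restored from the transcript names beside them. Digits were grouped by their sample titles, and replicates were numbered in the order of the series.

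The expected counts were taken as whole numbers after rounding, low genes were removed with filterByExpr, and the 3 digits of each time were compared with edgeR 4.0.16 in R 4.3.3 (TMM normalization, glmQLFit and glmQLFTest, 2 groups alone). The study's own tool, EBSeq, was not installed. A called gene had a Benjamini-Hochberg adjusted p under 0.05, and its group means of normalized count, each plus 1, differed by more than a factor of 2. Normalized counts are counts brought to a common effective library size. Levels between genes are given only as normalized TPM, which is per length. Counts were simulated for these 12974 genes with 200 changed, drawn from genes above a minimum mean count. On adjusted p under 0.05 alone, the test recovered 5 of 200 genes changed by 2-fold (1 false call). It recovered 156 of 200 changed by 4-fold (10 false calls). The fold criterion of a call was not applied in this simulation. Between 3488364 and 9544435 counts per digit set the precision. A count of 0 allows up to 3 counts, and this floor covers counting error only. Replicates differed by more than counting error in every pair, so each library was counted as its own replicate.

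Function lists (47 lists with 735 genes, 626 tested) are described by counts and medians, with no test over a list. The comparison and the lists were chosen with earlier results of these data known. Named genes are the 12 largest rises and 12 largest falls among called genes with no overlap between the times and at least 100 normalized counts on average, placeholder names passed over, up to 4 called members per list by adjusted p or, where none was called, 2 by unadjusted p, and the highest markers of each cell type list. Other genes of a list are named to account for its members, and some that the rule names are not reported here. Levels over all 29 non-regenerative digits and in M1 and M2 macrophages are descriptions. Genes that overlap another gene (such as Junb, Fosl1, Ctsa, Adamts4, Tgfb3, Ccna2 and Dbp) may hold reads of both, since use of strand in counting is not given in the sources used here. Promoters are RefSeq windows of GRCm38.p6. Alternatives were DESeq2 1.42.0, DESeq2 size factors, other filters, no fold threshold, limma 3.58.1 on log2(normalized TPM + 1) and log2(normalized TPM + 0.1), the label period, other sets of digits, and each digit left out.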

Additional observations from a re-analysis of the deposited data

Results flagged for a closer look

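Of 16 genes followed over the time course, 1 stood out in the group of 5 digits at 7 days. Cxcl1 was at 371 normalized TPM in 7-day replicate 2 and between 5.02 and 27.2 in the other 4 digits, a gap of 0.939 of the group's range against a critical value of 0.71 (Dixon's test). The level of that digit lay above all 3-day digits. Chance alone marks about 1 in 20 groups so tested. This digit took no part in the comparison of 3 days with 24 hours.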

How the results depend on the processing

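The number of genes called was 358 as reported and within 1.5 times of it with DESeq2 size factors, without a filter on low counts, with a mean count of at least 50, with no fold threshold and with the digits from 0 hours to 3 days in 1 fit. DESeq2 called 748 (451 higher and 297 lower, against 164 and 194), limma 99 with a pseudocount of 1 and 74 with 0.1, a fit with the label period as a term 604, and the 4 digits of the earlier period alone 584. By list, DESeq2 and limma (pseudocount of 1) called 8 and 1 acute cytokines and mediators lower. They called 10 and 0 wound-induced keratins and S100 genes, 12 and 5 migration genes and 2 and 0 ribosome genes lower. Higher were 22 and 8 mitotic genes, 12 and 4 collagens, 10 and 1 matricellular genes, 6 and 2 macrophage genes and 5 and 0 lysosomal genes. All non-regenerative digits in 1 fit gave 3, and 37 without 14-day replicate 2. The intermediate digits at 24 hours gave 0 (991 with an unadjusted p under 0.05), and 15 when pooled with the non-regenerative ones. With 1 digit left out the count ran from 0 to 683. The cause was not tested. The fits without 14-day replicate 2, from 0 hours to 3 days and with pooled 24-hour digits were chosen after seeing the data.

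Of 118 named genes, 12 changed sign under some setting, 2 of them (Krt15 and Eln) called. With the intermediate digits at 24 hours the log2 fold change was -1.32 for Krt15, -0.14 for Eln, 0.072 for Cd5, 1.02 for Il7r, -0.17 for Mcpt4, -3.19 for Krt35, -2.66 for Krt86, -0.27 for Tnni2, -0.88 for Car3, -0.026 for Fabp4 and 0.059 for Hif1a. With both kinds pooled it was -0.37 for Krt15, 0.40 for Il7r, -2.25 for Krt35 and -1.77 for Krt86. Il7r was at 0.12 in the earlier period, and with 1 digit left out it ran from -0.75 to 0.45, above 0 without 24-hour replicate 3 (0.45), 3-day replicate 2 (0.39) or 3-day replicate 3 (0.066). With 1 digit left out Cd5 ran from -0.44 to 0.16 (without 24-hour replicate 1) and Krt86 from -1.12 (without 3-day replicate 1) to 1.27. Atp2a1 was at -0.34 and -0.61 with limma at pseudocounts of 1 and 0.1. No paired analysis was possible because the digits carry no replicate number that 24 hours and 3 days share. The label period, which both times hold, was the only block that could be fitted (604 calls, above). Members with few counts, such as lymphoid genes, cannot show a difference at this depth.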

Other observations

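The genes in these paragraphs were chosen after their values were seen and stand outside the lists of the report. Osmr, the receptor for oncostatin M, had 450.2, 398 and 719 normalized counts at 24 hours and 189.6, 113 and 185 at 3 days (log2 fold change -1.69 ± 0.30 SE, adjusted p = 0.0235 by edgeR), Clcf1, another gp130 ligand, fell by 2.013 on the log2 scale, and the transcription factor Stat3 had 2121, 2145 and 2262 and then 1052, 1007 and 1202. The gp130 ligands Lif, Il11 and Osm were not called, at -2.40, -1.41 and -2.58 on the log2 scale (adjusted p = 0.0982, 0.16 and 0.186 by edgeR). Gdnf, which supports motor and sensory neurons, fell by 1.83. The cytoskeletal genes Tubb6 and Tuba1c, both tubulins, fell by 1.57 and 1.54. Met, the receptor of hepatocyte growth factor, fell by 1.75.

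Among further risers, Igf1, the growth factor, had 74.5, 98.5 and 135 at 24 hours and 461, 339 and 558 at 3 days (log2 fold change 2.14 ± 0.29 SE, adjusted p = 0.0146). Gata3, a transcription factor of epidermal differentiation and of lymphocytes, had 68.1, 38.6 and 42.6 and then 209.6, 222 and 236 (log2 fold change 2.15 ± 0.29 SE, adjusted p = 0.0146), and Id4 rose by 1.84. Kinetochore and spindle genes that the mitotic list does not hold rose too, among them Kif2c (2.22), Ndc80 (2.17), Aspm (2.121), Knl1 (1.84), Espl1 (1.70) and Nuf2 (1.58). Skint3, of a family made by keratinocytes and known for selecting dendritic epidermal T cells, had 107, 45.7 and 101 and then 401, 278 and 558 (log2 fold change 2.29 ± 0.37 SE, adjusted p = 0.018), and the paralogs Skint1, Skint4 and Skint10 were called with low counts at 24 hours. The Skint genes are close copies of each other, so the split of reads among them is uncertain. Calls of these genes without single digits were not tabulated, and edgeR made 2 and 0 calls in all without 24-hour replicate 1 and without replicate 3.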
